A study of Saccharomyces cerevisiae with 8 samples.

Results

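The small (40S) subunit of the yeast ribosome is built from 1 rRNA and a set of Rps proteins, and the genes of those proteins are described here in cells with and without the large subunit protein Rpl12. The genes were taken by symbol, as every Saccharomyces cerevisiae gene written RPS with a number and, for one of a duplicated pair, the letter A or B. Of 56 such symbols in the RefSeq gene table, 52 had a probe set on the array, among 5449 S. cerevisiae genes in all. RPS4A, RPS6A and RPS30B were among those not measured here. The 52 genes comprised 21 complete A and B pairs, 7 genes with no paralog, and RPS4B, RPS6B and RPS30A, whose partners were not measured.

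Messenger RNA of whole cultures was measured on Affymetrix arrays in 4 groups, with 2 arrays per group from cultures titled biological replicates and 8 arrays in all. The plus RPL12B and plus RPL12A groups were strain 6EA1 carrying the named gene on a high copy plasmid. The double deletion was 6EA1 itself, from which both RPL12A and RPL12B are deleted. The wild type was W303, the genetic background given for the 4 groups. No 6EA1 group with an empty plasmid was used here, and the labels do not name the supplements or plasmid markers. All cultures grew at 30 °C in a yeast nitrogen base medium with 2% glucose to early log phase, an A600 of 0.5 to 0.6. The double deletion against the wild type asks what the loss of Rpl12 goes with, and each plasmid group against the double deletion asks what its return goes with.

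Rpl12 sits at the base of the stalk of the large subunit, where translation factors bind. Rps proteins fold and stabilise the 18S rRNA, and the small subunit decodes the messenger. Most Rps proteins of S. cerevisiae are encoded by a pair of genes kept from an ancient genome duplication, whose products are identical or nearly so, and ribosomal protein genes are among the most strongly transcribed genes of growing cells and are usually regulated together. Many of them carry introns, which are otherwise scarce in this yeast, and for a few pairs the protein represses the splicing or stability of its own transcripts.

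The signals of the deleted genes followed the genotypes on every array. RPL12A lay between 6.88 and 28.8 on the 4 arrays without the gene and between 5269 and 6079 on the other 4. RPL12B lay between 1.71 and 48.5 on the 4 arrays without it and between 5469 and 7040 on the other 4. The authors deposited 1 intensity per probe set, scaled so that the 2% trimmed mean was 500.2 on each array, which makes a level relative to the rest of the array. The median of the small subunit genes lay at the 98.0 to 98.5 percentile of S. cerevisiae genes on each array, and their signals ran from 911 to 8182, where array maxima were 6841 to 8915. A 25S rRNA control probe set was low (148 to 312) on the second array of the plus RPL12B, plus RPL12A and wild type groups and high (2476 to 5720) on the other 5. Log2 signals of all 5437 tested genes were fitted with limma, and its 2-sided p values were adjusted by Benjamini-Hochberg over all genes tested, with a threshold of 0.05. SD stands on n = 2, SE is limma's for a log2 difference, and with 2 arrays against 2 an exact test could not go below p = 0.333. In RNA of a whole culture, fewer cells with a transcript and less transcript per cell cannot be told apart.

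RPS22B was the small subunit gene that differed most between the groups. Together with RPS22A it encodes Rps22, a protein that binds the central domain of the 18S rRNA. Its transcript carries introns, and a structure in one of them is cut by the ribonuclease Rnt1, which removes unspliced RNA. The RPS22B signal was 2153 and 1809 in the plus RPL12B cultures, 2264 and 2387 in the plus RPL12A cultures, 1112 and 911 in the double deletion, and 4501 and 4146 in the wild type. The 3 levels did not overlap: lowest in the double deletion, between in both plasmid groups, highest in the wild type. The signal averaged 1012 ± 142 in the double deletion and 4324 ± 251 in the wild type (SD, n = 2 each), a 4.29-fold lower level and a log2 difference of -2.10 (SE 0.13, 95% interval -2.40 to -1.80, limma adjusted p = 0.000673). Of the 5437 genes tested, 13 had a lower difference in this comparison, RPL12A and RPL12B among them.

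RPS22A gave 5041 and 4896 in the plus RPL12B cultures, 4699 and 4614 in the plus RPL12A cultures, 4550 and 4981 in the double deletion, and 5535 and 5642 in the wild type. Both plasmid groups overlapped the double deletion, and all 6 arrays of these 3 groups lay below the wild type. The log2 difference of the double deletion from the wild type was -0.23 (SE 0.06, limma adjusted p = 0.0275) and lay above 0 under quantile normalization (0.05) and centring on hybridisation controls (0.17). Signals of 2 probe sets do not compare amounts of 2 transcripts, but their ratio can be followed across arrays. The log2 ratio of RPS22A to RPS22B was 2.03 and 2.45 in the double deletion, and 0.30 and 0.44 in the wild type.

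**Figure D1:**
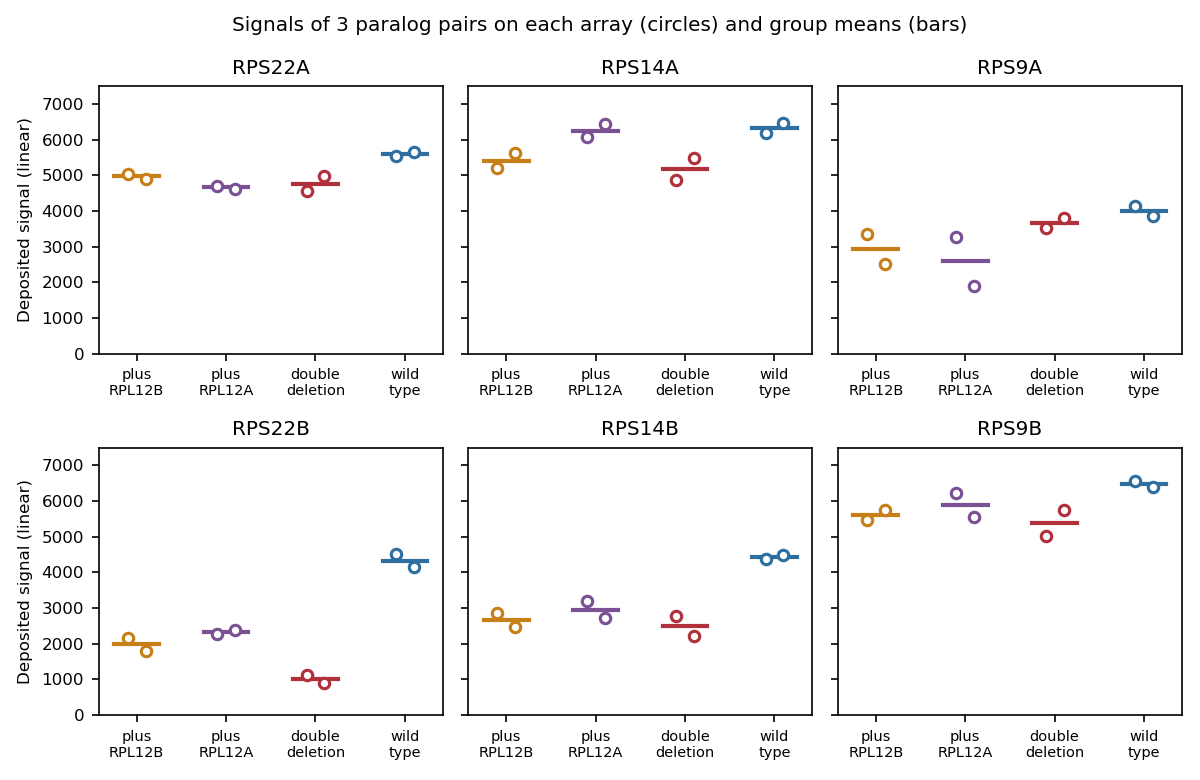
Deposited signal (linear scale, from 0) of both genes of the RPS22, RPS14 and RPS9 pairs, with 1 circle per array and a bar at the mean of each group of 2 arrays. RPS22B lies at 1112 and 911 in the double deletion, below the plasmid groups and the wild type, while RPS22A lies between 4550 and 5642 on all 8 arrays.

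The other small subunit genes were also lower in double deletion cultures than in wild type cultures, by a modest and similar amount. Of the 52 genes, 43 were called lower and 0 higher, against 12.2% of all genes tested called lower and 20.4% called higher, and this direction depended on the scaling, as the median of the 52 genes was -0.31 on the deposited scale and 0.10 with centring on hybridisation controls. Each of the 52 lay below 0 on the deposited scale. Their interquartile range ran from -0.36 to -0.27, while the median of all genes tested was 0.14. RPS19A, RPS23B, RPS10B, RPS28B, RPS27A, RPS19B, RPS9A and RPS1B were among the 9 genes that were not called. RPS22B and RPS14B stood below the others, of which RPS10A was the lowest at -0.44.

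**Figure D2:**
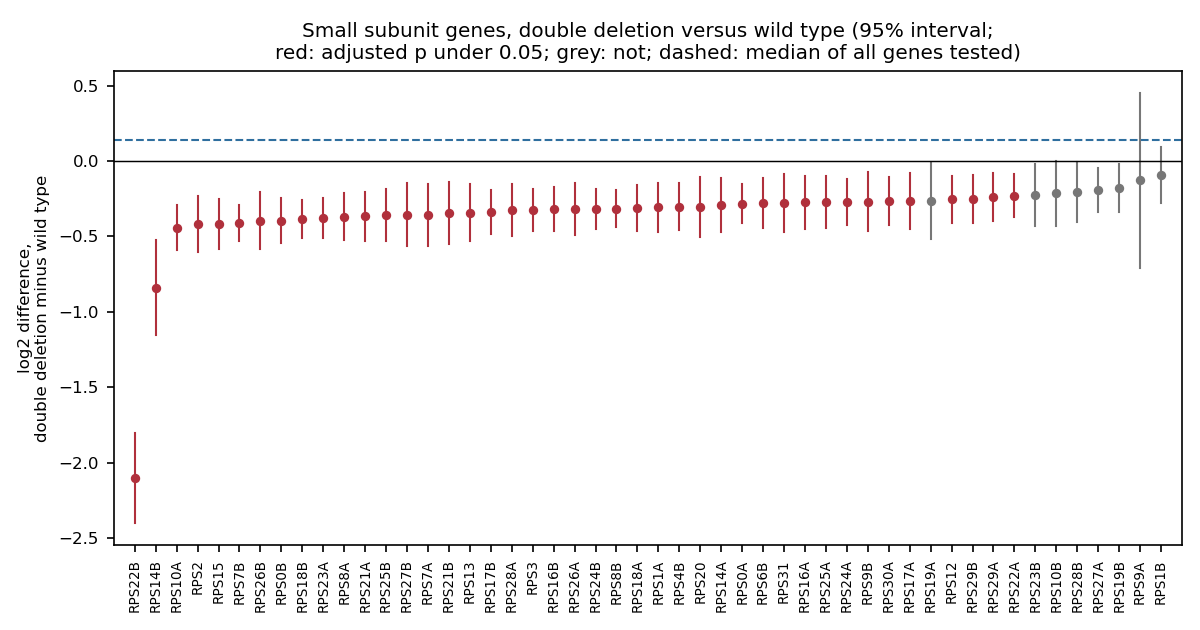
Log2 difference of the double deletion minus the wild type on the deposited scale for 50 small subunit genes, with limma's 95% interval, sorted from lowest to highest. Red genes passed an adjusted p of 0.05 and grey genes did not, and the dashed line is the median of all genes tested, 0.14. RPS22B at -2.10 and RPS14B at -0.84 lie apart from the other 48, which ran from -0.44 to -0.09 and would move up by 0.41 with centring on hybridisation controls.

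The 7 measured genes with no paralog were all called lower in the double deletion (12.2% of all genes tested were), with a median log2 difference of -0.32 on the deposited scale. The values given here for them become -0.01 in RPS2 and RPS15 and lie above 0 in the other 5 with centring on hybridisation controls. RPS2, whose protein lines the messenger entry channel, gave 4392 and 5041 in the double deletion against 6345 and 6234 in the wild type (log2 difference -0.42, SE 0.08, limma adjusted p = 0.0111). RPS15, for a head protein needed to export the subunit precursor from the nucleus, gave 5650 and 5853 in the double deletion against 7827 and 7527 in the wild type (-0.42, SE 0.07, limma adjusted p = 0.00871). The groups of both genes were well apart.

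RPS3, for a head protein at the messenger entry site, gave 4809 and 5071 in the double deletion against 6066 and 6304 in the wild type. RPS13, for a body protein, gave 4512 and 5052 in the double deletion against 5836 and 6284 in the wild type. RPS20, for a head protein, gave 5184 and 5976 in the double deletion against 6645 and 7085 in the wild type. In each of these 3 genes both double deletion arrays lay below both wild type arrays, with log2 differences of -0.32 in RPS3, -0.34 in RPS13 and -0.30 in RPS20. RPS31, which encodes its protein as a fusion to ubiquitin, gave 5394 and 6170 in the double deletion against 6902 and 7096 in the wild type (log2 difference -0.28). RPS12, for a protein of the beak of the head, gave 4869 and 5295 in the double deletion against 5934 and 6172 in the wild type (log2 difference -0.25). These 5 genes also passed the test, with limma adjusted p values between 0.00979 in RPS3 and 0.0391 in RPS31.

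By place in the subunit, 17 of 21 head genes and 26 of 31 body and platform genes were called lower in double deletion cultures, against 12.2% of all genes tested; on the deposited scale their medians were -0.28 and -0.32. RPS10A gave the lowest difference among head genes. Its protein lies in the head near the messenger entry. RPS10A gave 4936 and 4853 in the double deletion against 6546 and 6755 in the wild type (log2 difference -0.44, SE 0.06, limma adjusted p = 0.00603), with a narrow spread in both groups. Its difference was -0.13 (limma adjusted p = 0.130) with quantile normalization and -0.04 (limma adjusted p = 0.695) with centring on hybridisation controls.

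RPS18B, for a head protein that faces the large subunit, gave 5130 and 5304 in the double deletion against 6645 and 6947 in the wild type (log2 difference -0.38). RPS17B, for a head protein, gave 4553 and 4804 in the double deletion against 5853 and 5966 in the wild type (log2 difference -0.34). RPS25B, for a head protein used in internal initiation on some viral and cellular messengers, gave 3757 and 3997 in the double deletion against 4719 and 5245 in the wild type (log2 difference -0.36). In these 3 genes the groups did not overlap and the limma adjusted p lay between 0.00553 and 0.0133. Centring on hybridisation controls put all 3 above 0, at 0.02 in RPS18B, 0.07 in RPS17B and 0.04 in RPS25B.

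Among body and platform genes, RPS7B had the tightest arrays. It gave 4264 and 4258 in the double deletion against 5684 and 5644 in the wild type (log2 difference -0.41, SE 0.05, limma adjusted p = 0.00415). Its difference was -0.14 (limma adjusted p = 0.146) with quantile normalization and -0.0057 (limma adjusted p = 0.954) with centring on hybridisation controls. RPS7B and RPS22B were the only 2 of the 43 that stayed called when each of the 8 arrays was left out in turn. RPS0B, for a protein at the back of the subunit, gave 4585 and 4883 in the double deletion against 6107 and 6346 in the wild type (log2 difference -0.40). RPS21A, whose protein binds Rps0, gave 5985 and 6191 in the double deletion against 7693 and 8019 in the wild type (log2 difference -0.37). RPS26B, whose protein lies at the messenger exit channel, gave 2977 and 3185 in the double deletion against 4031 and 4076 in the wild type (log2 difference -0.40). The groups of RPS0B, RPS21A and RPS26B were apart on the deposited scale (limma adjusted p between 0.00741 and 0.0134), and centring on hybridisation controls put the 3 differences at 0.01 to 0.04.

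The number of small subunit genes called lower rested on single arrays of the compared groups. With replicate 1 of the double deletion left out it was 6 of 52 (2.17% of all genes), and with replicate 2 left out 45 (9.38%). With replicate 1 of the wild type left out it was 10 (3.57%), and with replicate 2 left out 2 (1.77%). Their median log2 difference stayed between -0.37 and -0.25 in these fits, and without a variance trend 18 were called lower (8.55%). Of the other large subunit genes (RPL12A and RPL12B aside), 52 of 68 were called lower (12.2% of all genes) with a median of -0.29. The difference between the subunits was not tested.

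The scaling of the arrays set the direction of the small subunit genes. Centring on the median S. cerevisiae signal shifted every difference of the double deletion from the wild type by -0.20. With it 50 of 52 genes were called lower, against 22.2% of all genes tested. Centring on 18 hybridisation control probe sets shifted every difference by 0.41, so that 46 of 52 lay above 0. It called 1 of the 52 lower and 3 higher, against 1.21% of all genes lower and 2822 of 5437 higher. The median of all genes was then 0.55. Quantile normalization forces the arrays to 1 distribution, whose top these genes occupy, and gave a median of -0.02. Of the 52 genes, 31 then lay below 0 and 2 were called lower, against 7.82% of all genes tested. The 3 scalings that move all genes of an array together cannot change the distance between the median of the 52 genes and the median of all genes. With them the median of the 52 genes lay 0.45 below that of all genes. With quantile normalization it lay 0.02 below. RPS22B was the only small subunit gene called lower under all 4 scalings, at -2.10, -2.30, -2.02 and -1.70 on the deposited, median centred, quantile and hybridisation control scales.

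**Figure D3:**
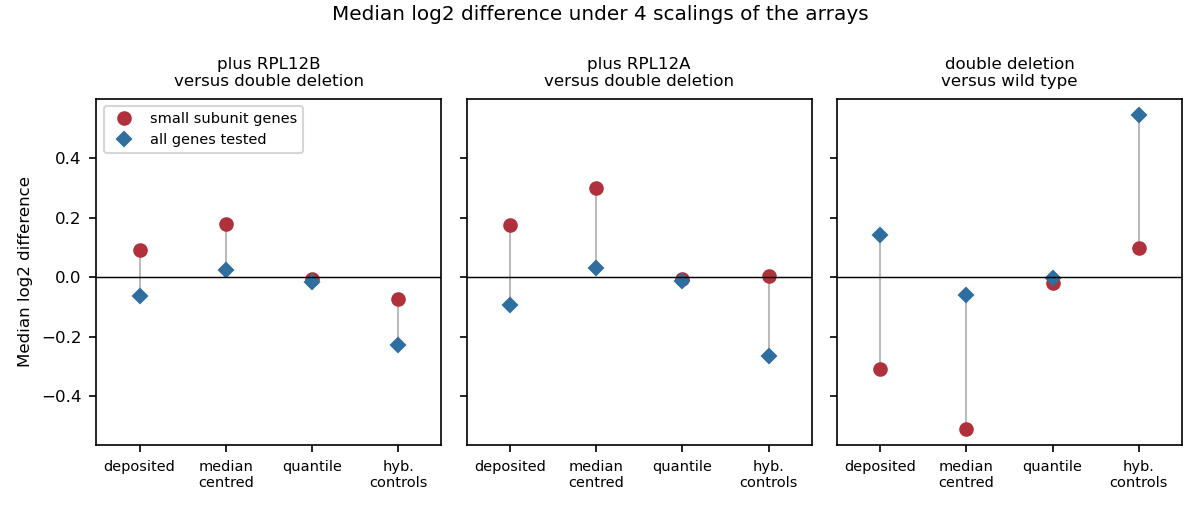
Median log2 difference of the 52 small subunit genes (red circles) and of all genes tested (blue diamonds) in 3 comparisons under 4 scalings of the arrays. For the double deletion minus the wild type the small subunit median goes between -0.51 with median centring and 0.10 with hybridisation control centring, while its distance from the median of all genes is 0.45 except under quantile normalization, where it is 0.02.

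The A and B genes of a pair were compared through the difference of their log2 signals within each array, which cancels the centring of the array. The change of this A to B ratio between groups was fitted with limma over all 51 A and B pairs of the array annotation, and adjusted over the 51. Of these, 21 are small subunit pairs, 28 are large subunit or stalk pairs, and 2 are not ribosomal protein genes. Shares of all pairs given here therefore describe mostly ribosomal protein pairs, those of the small subunit among them. In double deletion versus wild type cultures 1 of 21 small subunit pairs was called, RPS22, against 7.84% of all pairs. The RPS22 ratio changed by 1.87 (SE 0.15, 95% interval 1.51 to 2.23, limma adjusted p = 0.000694). It stayed called without each of the 8 arrays, with values of 1.66 to 2.08. In 18 of 21 pairs the ratio differed by less than 0.25, and the median size of the difference was 0.09 over the 21 pairs and 0.08 over all 51. The other pairs called in this comparison were RPL8, RPL9 and NHP6, which are not small subunit genes.

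**Figure D4:**
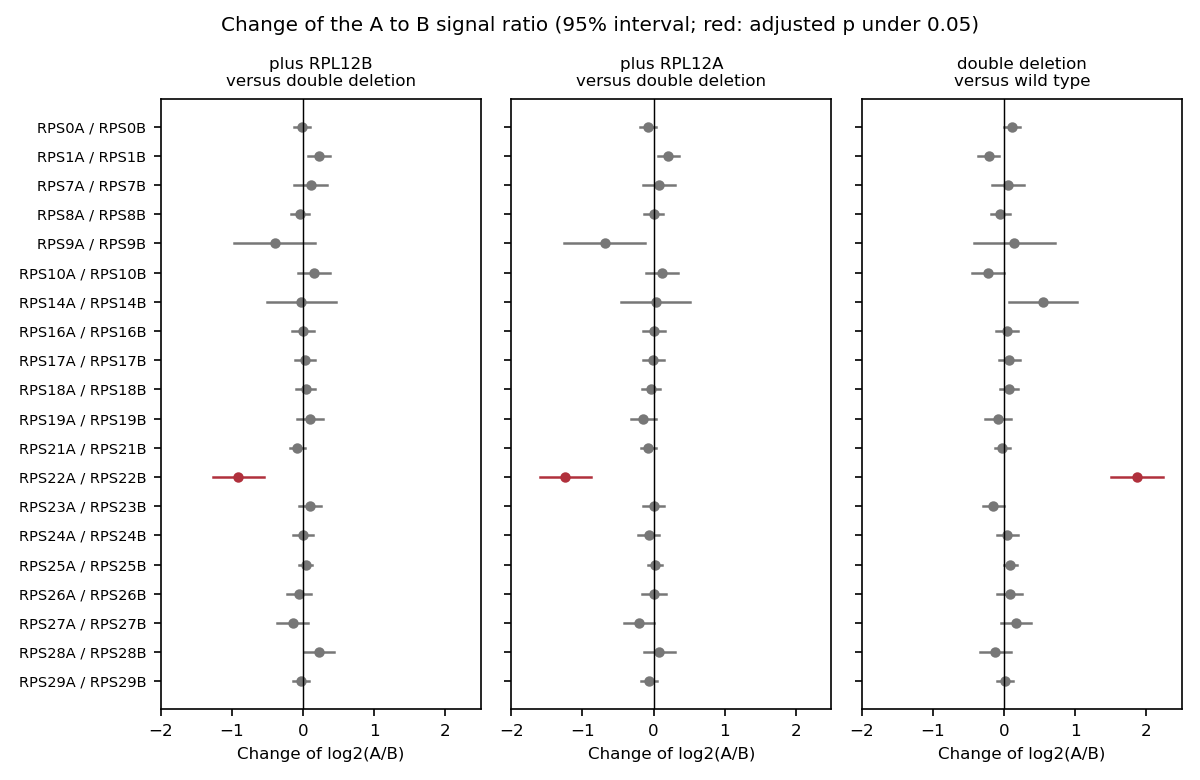
Change of the log2 ratio of the A gene to the B gene for 20 small subunit pairs in 3 comparisons, with limma's 95% interval. Red pairs passed an adjusted p of 0.05 over all 51 pairs. RPS22 is the pair in red in each panel, at -0.91 in plus RPL12B and -1.24 in plus RPL12A against the double deletion and at 1.87 in double deletion versus wild type cultures.

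RPS14 had the next largest difference in ratio between these groups. The pair encodes Rps14, a platform protein, and in yeast Rps14 is known to bind the RPS14B transcript and repress it. RPS14B gave 2847 and 2458 in the plus RPL12B cultures, 3191 and 2706 in the plus RPL12A cultures, 2776 and 2215 in the double deletion, and 4386 and 4498 in the wild type. The 3 strains derived from 6EA1 overlapped and all 6 of their arrays lay below the wild type. Its log2 difference was -0.84 in double deletion versus wild type cultures (SE 0.13, limma adjusted p = 0.00741). It was -0.44 (adjusted p = 0.0591) with centring on hybridisation controls and -0.82 (adjusted p = 0.0568) without wild type replicate 2. RPS14A gave 5191 and 5621 with plus RPL12B, 6058 and 6440 with plus RPL12A, 4853 and 5469 in the double deletion, and 6172 and 6455 in the wild type. The arrays of plus RPL12A overlapped the wild type for RPS14A, and those of plus RPL12B overlapped the double deletion. The log2 ratio of RPS14A to RPS14B was 0.81 and 1.30 in the double deletion and 0.49 and 0.52 in the wild type. The difference of 0.55 (SE 0.20) did not pass the test over all pairs (limma adjusted p = 0.236), and passed with the replicate number as a block (adjusted p = 0.0282). It was 0.30 (adjusted p = 0.696) without double deletion replicate 2 and 0.80 (adjusted p = 0.0732) without replicate 1 of that group.

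RPS9 encodes a body protein that binds the 18S rRNA early in assembly, and in yeast Rps9 is known to repress RPS9A through its intron. RPS9A gave 3354 and 2510 with plus RPL12B, 3279 and 1887 with plus RPL12A, 3519 and 3803 in the double deletion, and 4130 and 3869 in the wild type. Both plasmid groups lay below the other 2 groups, and their second arrays, which are also arrays with a low 25S signal, lay below their first. The 25S split was also fitted as a block. With it the RPS9 ratio change of double deletion versus wild type cultures, which was not called, turned negative, as given below. The cause of the lower second arrays was not tested. RPS9B gave 5478 and 5739 with plus RPL12B, 6228 and 5554 with plus RPL12A, 5015 and 5750 in the double deletion, and 6550 and 6391 in the wild type. The difference in the RPS9 ratio was -0.69 in plus RPL12A against the double deletion (SE 0.23, limma adjusted p = 0.184, 95% interval -1.26 to -0.12), and it was -0.37 without plus RPL12A replicate 2. It was -0.40 in plus RPL12B against the double deletion (limma adjusted p = 0.595), with -0.64 without plus RPL12B replicate 1 and -0.15 without replicate 2.

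RPS27 encodes a zinc-binding protein of the body and platform. RPS27A gave 5702 and 5582 with plus RPL12B, 5520 and 5861 with plus RPL12A, 5440 and 5949 in the double deletion, and 6377 and 6638 in the wild type. RPS27B gave 5528 and 6524 with plus RPL12B, 6214 and 6426 with plus RPL12A, 5210 and 5738 in the double deletion, and 6795 and 7211 in the wild type. The wild type was highest for both genes. The difference in the RPS27 ratio was 0.16 in double deletion versus wild type cultures (SE 0.09, limma adjusted p = 0.326).

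RPS28 encodes a head protein, and in yeast Rps28 is known to promote decay of the RPS28B messenger. RPS28A gave 4729 and 5434 with plus RPL12B, 5042 and 4860 with plus RPL12A, 4665 and 4859 in the double deletion, and 5962 and 5985 in the wild type. RPS28B gave 3487 and 3455 with plus RPL12B, 3872 and 3637 with plus RPL12A, 3530 and 4132 in the double deletion, and 4332 and 4479 in the wild type. The wild type was highest for both genes. The difference in the RPS28 ratio was -0.12 in double deletion versus wild type cultures (SE 0.09, limma adjusted p = 0.460) and 0.23 in plus RPL12B against the double deletion (SE 0.09, limma adjusted p = 0.510). The first value was -0.21 without double deletion replicate 1 and -0.04 without replicate 2. The second was 0.34 without plus RPL12B replicate 1 and 0.12 without replicate 2, and 0.14 without double deletion replicate 2.

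The return of RPL12A on a plasmid went with a higher level of RPS22B. In plus RPL12A against the double deletion 1 of 52 small subunit genes was called higher, RPS22B, against 0.221% of all genes. RPS22B averaged 2325 ± 87.2 in plus RPL12A and 1012 ± 142 in the double deletion (SD, n = 2 each), 2.31-fold higher (log2 difference 1.21, SE 0.13, limma adjusted p = 0.0193). Of all genes tested 15 had a higher difference. The call was lost (adjusted p = 0.202) without plus RPL12A replicate 2, without 5 of the other arrays in turn, and with centring on hybridisation controls (adjusted p = 0.0731). The RPS22 ratio changed by -1.24 (SE 0.15, limma adjusted p = 0.00750). RPS22 was the only pair called of all 51 pairs, 1.96% of them. Its call was lost without either plus RPL12A array, where the change was -1.29 without replicate 1 and -1.19 without replicate 2. None of the other 51 small subunit genes was called. The median of the 52 was 0.17, against -0.09 for all genes tested, and 0.00 with centring on hybridisation controls. At an unadjusted p under 0.05, 29 of 52 were higher and 0 lower, against 6.99% of all genes higher and 8.53% lower.

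With RPL12B returned, RPS22B again lay above the double deletion on both arrays, but its difference did not pass the test over all genes. None of the 52 genes was called by limma (0 of 52, against 0.11% of all genes called higher). At an unadjusted p under 0.05, 5 of 52 were higher and 0 lower, against 3.38% of all genes higher and 3.88% lower. RPS22B averaged 1981 ± 244 in plus RPL12B and 1012 ± 142 in the double deletion (SD, n = 2 each), a log2 difference of 0.97 (SE 0.13, limma adjusted p = 0.0716), and 33 genes had a higher difference. The adjusted p was 0.0340 with centring on the median signal and 0.0322 with the replicate number as a block. The RPS22 ratio changed by -0.91 (SE 0.15, limma adjusted p = 0.0413). RPS22 was again the only pair called of all 51 pairs, 1.96% of them. This call was lost without each of 7 arrays in turn, and the change ran from -1.12 to -0.70 over the fits without 1 array. It was also lost within the 4 compared arrays alone (limma adjusted p = 0.382). The median of the 52 genes was 0.09, against -0.06 for all genes tested, and -0.07 with centring on hybridisation controls. This median was 0.03 without double deletion replicate 1 and also without plus RPL12B replicate 2, and 0.14 without double deletion replicate 2.

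Neither plasmid brought RPS22B to the level of the wild type. Against the wild type, 3 of 52 genes were called lower in plus RPL12A and 0 higher (1.8% and 2.21% of all genes): RPS22B at -0.89 (SE 0.13, limma adjusted p = 0.0215), RPS10A at -0.37 and RPS7B at -0.25. Against the same arrays, 12 of 52 were called lower in plus RPL12B and 0 higher (3.99% and 5.57% of all genes), led by RPS22B at -1.13 (SE 0.13, limma adjusted p = 0.00931) and RPS14B at -0.75 (limma adjusted p = 0.0245). The other 10 were RPS28B, RPS7B, RPS21A, RPS0B, RPS18B, RPS25B, RPS10A, RPS17B, RPS24B and RPS23A, between -0.34 and -0.24. The medians of the 52 genes were -0.22 in plus RPL12B and -0.14 in plus RPL12A against the wild type on the deposited scale, and 0.02 and 0.09 with centring on hybridisation controls. The RPS22 ratio differed from the wild type by 0.96 in plus RPL12B (SE 0.15, limma adjusted p = 0.0154). RPS22 and RPL8 were the pairs called in that comparison, 3.92% of all 51 pairs. In plus RPL12A the RPS22 ratio differed from the wild type by 0.63 (SE 0.15, limma adjusted p = 0.0875). The call of the ratio in plus RPL12B was lost without each of 6 arrays in turn (adjusted p up to 0.218). The call of RPS22B in plus RPL12A was lost with quantile normalization (adjusted p = 0.0523) and without 4 of the arrays in turn (adjusted p up to 0.184), and that in plus RPL12B without either wild type array (adjusted p up to 0.100). Over the fits without 1 array the number of genes called changed with the array left out. The median of the 52 genes stayed between -0.16 and -0.12 in plus RPL12A and between -0.27 and -0.17 in plus RPL12B. These comparisons share their wild type arrays with that of the double deletion.

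Between the plasmids no small subunit gene differed by the test. In plus RPL12B against plus RPL12A 0 of 52 genes were called by limma, against 0.0184% of all genes called lower. At an unadjusted p under 0.05, 3 of 52 were lower and 0 higher, against 1.2% of all genes lower and 0.497% higher. The RPS22B difference was -0.24 (SE 0.13, 95% interval -0.54 to 0.06), and the difference in the RPS22 ratio was 0.33 (SE 0.15, 95% interval -0.03 to 0.69, limma adjusted p = 0.793). These intervals leave room for a lower RPS22B level in plus RPL12B.

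Levels relative to the other small subunit genes need no scaling of the arrays. The log2 signal of RPS22B minus the median of the 52 genes on the same array was -1.22 and -1.58 in plus RPL12B, -1.29 and -1.25 in plus RPL12A, -2.09 and -2.47 in the double deletion, and -0.43 and -0.61 in the wild type. That of RPS14B was -0.82 and -1.14 in plus RPL12B, -0.80 and -1.07 in plus RPL12A, -0.77 and -1.19 in the double deletion, and -0.46 and -0.49 in the wild type. Both genes were closest to the rest of the set in the wild type, and the double deletion stood apart from the plasmid groups for RPS22B but overlapped them for RPS14B.

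Genes that serve the small subunit were read in the same fit. Of 20 tested assembly factors, 5 were called lower in double deletion versus wild type cultures and 0 higher, with a median of -0.29. Of all genes tested, 12.2% were called lower and 20.4% higher, with a median of 0.14. They were DIM1, the 18S rRNA dimethylase (-0.79), TSR2, the escort of Rps26 (-0.71), FAP7, which handles Rps14 (-0.53), TSR4, which handles Rps2 (-0.52), and NOP1, a methyltransferase of pre-rRNA (-0.36, which centring on hybridisation controls would put above 0). Of 8 other partners of the subunit, 4 were called lower (12.2% of all genes): the scaffold protein gene ASC1 (-0.39), STM1 for a protein that clamps idle ribosomes (-0.29), and the initiation factor genes SUI1 (-0.32) and TIF11 (-0.24). These 4 would lie above 0 with centring on hybridisation controls.

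The regulators of ribosomal protein genes include activators, corepressors and kinases. Of 10 tested, 2 passed the test as higher and 0 as lower in double deletion versus wild type cultures, with a median of 0.12. These are close to the values of all genes tested, 20.4% called higher and a median of 0.14, so the count says nothing particular about the regulators. The 2 were CRF1, a corepressor of ribosomal protein genes (1.30, SE 0.25, limma adjusted p = 0.0115), and SFP1, an activator of them (0.42, SE 0.13, limma adjusted p = 0.0395). CRF1 was also called higher in plus RPL12B against the wild type (1.13, limma adjusted p = 0.0392). RAP1, FHL1 and IFH1, which bind and activate these promoters, gave 0.07, 0.18 and 0.04 and did not pass the test. RNT1, for the ribonuclease that cuts the RPS22B intron, gave -0.39 (SE 0.19, limma adjusted p = 0.164) and did not pass the test. Its difference would lie above 0 with centring on hybridisation controls.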

How the data were processed

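The authors deposited linear intensity values, 1 for each probe set of an array. Per the submitters' processing notes they come from MAS5, of unstated version. The deposited table held 10928 probe sets, of which 5498 stood for 5449 S. cerevisiae genes by GEO's platform annotation. A plain probe set (suffix at) stood for a gene in preference to one that can read related sequences (s_at, x_at), and the one with the higher mean among several plain ones. RPS4B, RPS6B and RPS30A had only s_at probe sets, so their signals may include a paralog.

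Tests took genes above the 95th percentile of S. pombe signals on 2 or more arrays, which kept 5437 genes and all 52 small subunit genes. Group means of log2 intensity were estimated from all 8 arrays by limma 3.58.1 in R 4.3.3 (lmFit, eBayes with a trend; 4 residual and 3.22 prior degrees of freedom). The 6 comparisons were adjusted separately by Benjamini-Hochberg. Ratios of A to B genes were fitted over 51 pairs without a trend. The gene fit and the pair fit were each run on simulated data with added changes. Plots come from matplotlib 3.10.9 under Python 3.11.15.

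Signals on all 8 arrays are given for RPS22A, RPS22B and pairs called or among the 3 largest ratio changes of the first 3 comparisons. For other genes given by array, only those of the double deletion and the wild type are given. They are the 10 largest called differences of the double deletion from the wild type, up to 10 called genes of each other comparison, and genes with no paralog. Some genes that meet these rules are counted but not reported here by name. The genes, lists and rules were chosen with earlier results of these data known. Alternatives were centring on the median or on 18 hybridisation control probe sets, quantile normalization, a pseudocount of 16, no filter, the mean of all probe sets, the replicate number or the 25S split as a block, no trend (robust variances for pairs), the 4 compared arrays alone, pairs of plain probe sets only, and leaving out each array. The brightest probe set was added after the data were seen. Replicates are titled biological. Each p value sets a difference against limma's estimate of the spread between replicates, which draws on all 4 groups and on other genes. No genome build came with the arrays, so no positions are given.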

Additional observations from a re-analysis of the deposited data

How the results depend on the processing

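Alternatives other than leaving out an array changed the count of small subunit genes called lower in double deletion versus wild type cultures. It was 18 without a trend (8.55% of all genes) and 2 with quantile normalization (7.82% of all genes). Hybridisation control centring called 1 lower and 3 higher, against 1.21% of all genes lower and 2822 of 5437 higher. In plus RPL12A against the double deletion the count was 0 with hybridisation control centring, without a trend and with the 4 compared arrays alone. It was 6 with the replicate block, where calls among all genes rose from 12 to 74. In plus RPL12B against the double deletion it was 1 with median centring (8 of all genes higher) and 1 with the replicate block (17 of all genes). In plus RPL12A against the wild type it was 6 with median centring, 0 with quantile normalization, 1 with hybridisation control centring, 13 with the replicate block, 8 with the 25S block and 1 without a trend. In plus RPL12B against the wild type it was 30, 1, 1, 36, 22 and 2 under the same settings and 1 with the 4 compared arrays alone. Of all genes, 3.27%, 0.589% and 0.441% were called lower in plus RPL12A with the first 3 settings, and 9.86%, 1.91% and 0.57% in plus RPL12B. With the replicate block, calls among all genes against the wild type rose from 218 to 723 in plus RPL12A and from 520 to 1202 in plus RPL12B. Shares for the other settings are not reported here. Pairs called with the replicate block were 2 (RPS22 and RPS14) in each comparison with the wild type. With the 25S block 2 were called in plus RPL12B against the wild type, and 0 in plus RPL12B against the double deletion, where robust variances and the 4 compared arrays alone also gave 0. The 4 compared arrays alone gave 0 in plus RPL12A against the double deletion, and quantile normalization gave 1 in plus RPL12A against the wild type.

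Leaving out each array gave 2 to 45 genes called lower in double deletion versus wild type cultures, and 0 to 1, 0 to 5 and 0 to 6 genes called in plus RPL12A against the double deletion, plus RPL12A against the wild type and plus RPL12B against the wild type. Pairs called then numbered 0 to 1 in each comparison except double deletion versus wild type, where 1 was called throughout. The replicate numbers are shared by the groups but pair nothing in the labels, and deviations of same-numbered arrays correlated at 0.05 to 0.79 across genes. The cause of these changes was not tested.

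With hybridisation control centring these differences of the double deletion from the wild type turned positive: the median of the genes (0.10), RPS22A (0.17), RPS26B (0.0086), RPS0B (0.0092), RPS18B (0.024), RPS28B (0.20), RPS21A (0.037), RPS25B (0.044), RPS17B (0.067), RPS14A (0.11), RPS9A (0.28), RPS9B (0.14), RPS27A (0.21), RPS27B (0.049), RPS28A (0.078), RPS3 (0.080), RPS12 (0.15), RPS13 (0.062), RPS20 (0.10) and RPS31 (0.13). So did the medians of plus RPL12A (0.094) and plus RPL12B (0.021) against the wild type, while in plus RPL12B against the double deletion the median (-0.072) and RPS14B (-0.070) turned negative. With quantile normalization RPS22A (0.049), RPS28B (0.064), RPS14A (0.0034), RPS9A (0.13), RPS9B (0.037), RPS27A (0.11), RPS12 (0.045) and RPS31 (0.0045) turned positive in the double deletion, and the medians against the double deletion were -0.0067 in plus RPL12A and -0.0047 in plus RPL12B. Ratio changes that were not called also turned. RPS9 was -0.055 in double deletion versus wild type cultures with the 25S block. In plus RPL12A against the double deletion RPS14 was -0.074 with quantile normalization and -0.080 with the 25S block.

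Without 1 array, the ratios in plus RPL12A against the double deletion ran from -0.22 to 0.28 in RPS14 and from -0.0027 to 0.17 in RPS28. In plus RPL12B against the double deletion RPS14B ran from -0.070 to 0.26 and the RPS14 ratio from -0.27 to 0.22. With 2 arrays per group the number of arrays limits the precision. The signals of the small subunit genes lay near the top of each array's range, and saturation could not be checked.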

Other observations

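For 13 of the 52 small subunit genes the array carries more than 1 probe set. In double deletion versus wild type cultures the 2 differed by a median of 0.06 on the log2 scale and by at most 0.23, and none of the 13 had opposite signs. In plus RPL12B against plus RPL12A 4 of the 13 had opposite signs, and the largest gap was 0.205, in RPS23A. The pair RPS10 shows the size of the gaps. The plain probe set of RPS10B gave -0.21 and its x_at probe set -0.32 in double deletion versus wild type cultures. Those of RPS10A gave -0.44 and -0.44 in that comparison. In plus RPL12A against the wild type, where RPS10A was called, its plain probe set gave -0.37 and its x_at probe set -0.27. In plus RPL12B against plus RPL12A the RPS10A probe sets had opposite signs, 0.07 and -0.06.

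RPS1A and RPS1B, for a protein at the platform that contacts the messenger exit, were a pair whose A gene was called lower in the double deletion and whose B gene was not. RPS10, RPS23 and RPS28 were also such pairs, and in RPS9 and RPS27 only the B gene was called lower. RPS1B gave 6084 and 6249 in the double deletion against 6701 and 6461 in the wild type, a log2 difference of -0.09. RPS1A gave 3619 and 3758 in the double deletion against 4437 and 4690 in the wild type, a log2 difference of -0.31. Both differences would lie above 0 with centring on hybridisation controls. The difference in the ratio was -0.21 (SE 0.06, limma adjusted p = 0.127 over all 51 pairs), and 0.23 in plus RPL12B and 0.21 in plus RPL12A against the double deletion (limma adjusted p = 0.249 and 0.184), so none passed the test. The pair was chosen after its values were seen.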
